A study of Mus musculus with 6 samples.

Results

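Fatty acid binding proteins were examined through all 11 probe sets annotated to exactly 1 gene of the family (Fabp1, Fabp2, Fabp3, Fabp4, Fabp5 and Fabp7), of 22690 probe sets in the deposited table. Fabp4 had 4 probe sets, Fabp1 and Fabp5 had 2 each, and Fabp2, Fabp3 and Fabp7 had 1 each. No filter on low values was used, so all 11 are accounted for below. The genes were chosen by family with their transgenic minus wild-type differences already known, chiefly that of Fabp3. Their values are therefore given as a description, with the standard error (SE) of the fit and no p-value.

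Total RNA came from liver at postnatal day 9, 3 wild-type and 3 transgenic animals, each on its own array. The transgenic mice joined a conditional allele for overexpression of Tcfeb (now Tfeb), a transcription factor of lysosomal and autophagy genes, to the Alb-Cre line. The albumin promoter that drives Cre is active in hepatocytes. Which other liver cells carry the change, bile duct cells included, was not measured. The labels give no sex, strain or littermate status, and call the controls wild type without naming a Cre or conditional allele. Values are log2 expression on the scale of RMA, which corrects background, equalises the distributions of the arrays and sums up the probes of a probe set. Differences are transgenic minus wild type.

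Fatty acid binding proteins are small cytosolic proteins that fold into a barrel around a long-chain fatty acid or another lipid. They carry these poorly soluble molecules between membranes, mitochondria, peroxisomes, lipid droplets and the nucleus, where some deliver ligands to the nuclear receptors of the PPAR family. Hepatocytes are known for a very high level of Fabp1, and the other members are named after the intestine, heart, fat, skin and brain. Several of the genes are themselves PPAR targets.

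Liver of the transgenic mice read 19.5-fold higher for Fabp3, the heart and muscle form, while Fabp1, the liver form, differed by about 0.1 on the log2 scale. Fabp7, the brain form, read 1.54-fold higher. Fabp4, the fat and macrophage form, read lower on its 2 dim probe sets (-1.12 and -0.41), while its bright pair did not pass the threshold (-0.21 and -0.07). Fabp2 and Fabp5, the intestinal and the epidermal form, differed by less than 0.3 on every probe set. Of these, Fabp5 probe set 1416022_at was lower and past the threshold (-0.25).

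Promoter sequence was at hand for Fabp1, Fabp2, Fabp3 and Fabp7 in a RefSeq table of build GRCm38.p6. The 250 bases before the start of transcription are shown for the pair of members that read higher and for Fabp1, the liver form, which did not pass the threshold. Capitals mark matches, on either strand, to the motifs named next. The sequences run 5′ to 3′ along the gene, all on the plus strand.
Fabp3 (chr4:130308488-130308737): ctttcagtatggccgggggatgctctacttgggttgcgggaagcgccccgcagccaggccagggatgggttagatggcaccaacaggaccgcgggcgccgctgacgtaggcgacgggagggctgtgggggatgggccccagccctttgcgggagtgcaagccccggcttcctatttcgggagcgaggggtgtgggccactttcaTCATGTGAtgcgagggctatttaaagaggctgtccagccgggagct
Fabp7 (chr10:57784673-57784922): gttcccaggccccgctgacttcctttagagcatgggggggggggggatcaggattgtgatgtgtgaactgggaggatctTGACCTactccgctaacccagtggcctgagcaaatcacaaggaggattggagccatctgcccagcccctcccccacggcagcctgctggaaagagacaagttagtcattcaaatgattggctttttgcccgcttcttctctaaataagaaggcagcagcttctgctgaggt
Fabp1 (chr6:71199629-71199878): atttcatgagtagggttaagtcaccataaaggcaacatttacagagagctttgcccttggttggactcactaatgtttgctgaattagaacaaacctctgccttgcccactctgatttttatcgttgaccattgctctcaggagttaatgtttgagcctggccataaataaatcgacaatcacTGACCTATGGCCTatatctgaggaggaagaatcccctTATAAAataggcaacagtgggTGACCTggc

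The motifs searched were the E-box CACGTG that TFEB and its relatives bind, the related E-box CATGTG, the M-box TCATGTGA (which contains CATGTG), the nuclear receptor half-site AGGTCA, the loose direct repeat AGGNCANAGGNCA (which can contain the half-site) and the TATA box TATAAA. In Fabp3 the M-box TCATGTGA lay 46 to 39 bases before the start, and 0.846% of 32851 promoters of the same length held that motif. It was chosen after the Fabp3 sequence had been seen. Those letters and CATGTG were not found in the windows of Fabp1, Fabp2 and Fabp7, and CACGTG was not found in any of the 4 windows (6.02% of promoters held it, and 12.3% held CATGTG). Fabp1 carried the direct repeat at 67 to 55 bases before the start, read as TGACCTATGGCCT along the gene, a motif held by 0.338% of promoters. It also had a second half-site match at 9 to 4 bases and a TATA box at 30 to 25 bases before the start. Fabp7 held a half-site at 171 to 166 bases before the start, and none of the motifs was found in the Fabp2 window (14.0% of promoters held the half-site and 12.4% the TATA box). The Fabp3 window had 64.8% G and C bases, with 82.3% of promoters lower, against 42.8% for Fabp1, 35.6% for Fabp2, 54.8% for Fabp7 and a median of 52.4%. A match is a string of letters and does not show binding.

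Some features of the arrays as a whole touch the results. Of 22626 probe sets other than array controls, 8006 (35.4%) passed an adjusted p of 0.05 by limma, 18.1% higher and 17.3% lower, so a call was common. Counts for gene and marker lists stand against 38.6% of 12393 genes, each taken at its brightest probe set, with 19.1% higher and 19.5% lower. The bacterial hybridisation controls, 14 probe sets, all separated the groups, transgenic arrays reading lower by a median of 0.37. When the arrays were scaled to those controls, 93.2% of calls were higher against 51.0% as deposited, and the median of all probe sets moved from -0.04 to 0.33. Directions below are relative to the deposited scale. Transgenic replicate 1 had a male pattern, with Xist at 5.58 against 13.03 to 13.19 in the other 5 arrays. The lactase gene Lct, an intestinal marker, read 8.43 in wild-type replicate 1 and 3.37 to 3.93 elsewhere. The muscle actin gene Acta1 read 8.04 in transgenic replicate 1 and 4.98 to 5.17 elsewhere. Hepatocyte markers were bright, with readings of 7.73 to 14.90 for the 9 of 10 genes measured, as the tissue label would have it. The largest differences among them were those of Tdo2, an enzyme of tryptophan breakdown (-3.58, SE 0.16), and Hpd, an enzyme of tyrosine breakdown (-1.09, SE 0.12). Their summed linear level was 153914 to 154780 in wild-type and 132243 to 133906 in transgenic arrays, with 5 of the 9 genes lower. The only probe set for Tfeb did not show a higher level (difference -0.21, SE 0.11, adjusted p = 0.178), and the labels do not say whether it lies in the part the transgene carries.

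**Figure D1:**
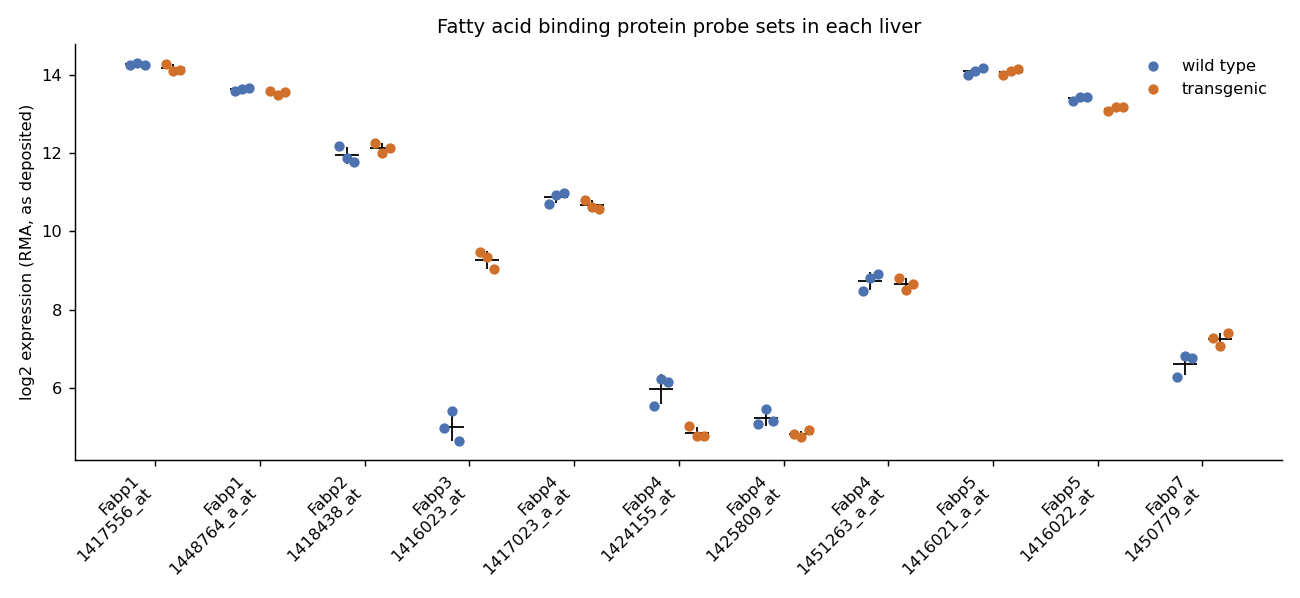
Log2 expression (vertical axis, RMA scale as deposited) of the 11 fatty acid binding protein probe sets in each of 3 wild-type and 3 transgenic livers, with points for arrays, horizontal marks for group means and bars for the SD. Fabp3 moved from 4.64 to 5.39 in wild-type to 9.03 to 9.47 in transgenic arrays, while Fabp1 and Fabp5 stayed near the top of the scale.

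The wild-type livers read 4.96, 5.39 and 4.64 for Fabp3, which ferries fatty acids to mitochondria in heart and muscle. The transgenic livers read 9.47, 9.34 and 9.03 on the same probe set, 1416023_at. The groups did not overlap, and 3.64 separated the lowest transgenic from the highest wild-type array. The means were 5.00 ± 0.38 (SD, n = 3) and 9.28 ± 0.23 (SD, n = 3), a difference of 4.28 (SE 0.19). In wild-type liver 26.3% of probe sets read lower than this one, and in transgenic liver 81.9%, so the starting level was a dim reading whose height over background is unknown. With 8 genes showing a larger rise, Fabp3 stood among the largest differences of the whole table, which is how it came to be described here. The difference stayed between 4.10 and 4.48 with each array left out, and was 4.19 without the male-pattern array with high Acta1.

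Markers of heart and skeletal muscle were read beside Fabp3 because those tissues are its main known site. All 12 were measured, with 1 gene higher, 1 lower and 10 not past the threshold, and a median difference of -0.04. Their summed linear level ranged from 379 to 392 in wild-type and from 351 to 652 in transgenic arrays. Acta1, with its high reading in transgenic replicate 1, had the largest difference of the list (1.01, SE 0.70, not past the threshold), followed by the cardiac troponin gene Tnnt2 (0.44, SE 0.13). The creatine kinase gene Ckmt2 also read highest in transgenic replicate 1, at 4.77 against 3.21 to 3.48 elsewhere. Acta1 read 5.13 and 5.10 in the other transgenic arrays, where Fabp3 read 9.34 and 9.03. The part of muscle RNA in the Fabp3 values was not tested. In whole liver, fewer cells of a type and less RNA per cell cannot be told apart.

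**Figure D2:**
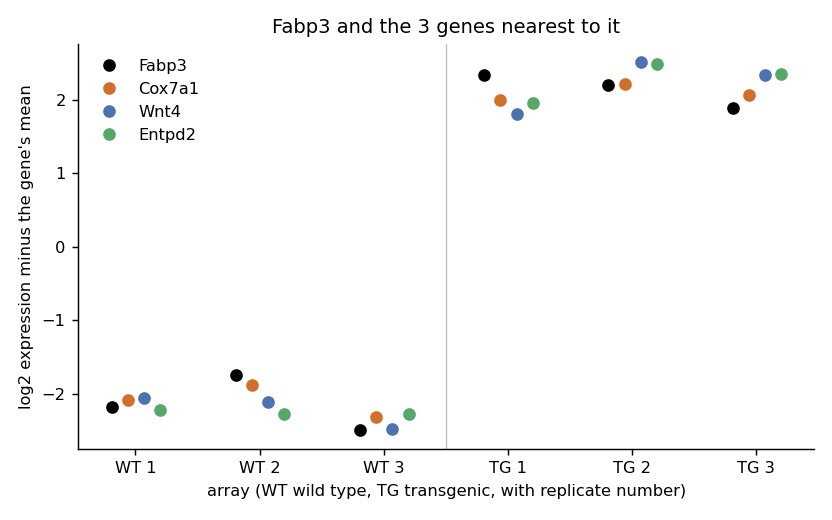
Log2 expression minus each gene's own mean (vertical axis) in the 6 arrays for 4 genes. They are Fabp3 and the 3 genes nearest to it by Euclidean distance, unnamed gene models passed over. For these 4 genes the highest wild-type point lay at -1.75 and the lowest transgenic point at 1.81.

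The genes whose 6 values ran most like those of Fabp3 were Cox7a1, Wnt4 and Entpd2. The measure was the Euclidean distance between the 6 array values after each gene was centred on its own mean, over 12393 genes. Unnamed gene models were passed over, so such a model may lie nearer. Cox7a1, the heart and muscle isoform of a cytochrome c oxidase subunit, was nearest at a distance of 0.46. It read 5.30, 5.50 and 5.07 in wild-type and 9.37, 9.60 and 9.44 in transgenic arrays. The secreted WNT ligand gene Wnt4 followed at 0.85 (difference 4.44, SE 0.19), and Entpd2, which encodes a cell-surface enzyme that splits extracellular nucleotides, at 0.88 (difference 4.52, SE 0.13). The distance mostly reflects a like-sized step between the groups.

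Fabp7 carries polyunsaturated fatty acids in neural progenitors and glia. It read 6.27, 6.80 and 6.76 in wild-type and 7.26, 7.06 and 7.39 in transgenic liver on probe set 1450779_at. Every transgenic array lay above every wild-type array, by at least 0.26. The means were 6.61 ± 0.30 and 7.24 ± 0.16 (SD, n = 3 each), a difference of 0.62 (SE 0.15), and without transgenic replicate 3 the difference of 0.55 was no longer past the threshold. The reading lay near the middle of the array, with 48.2% of probe sets lower in wild-type liver. Of 6 glial and Schwann cell markers measured, 2 were higher, 1 lower and 3 not past the threshold, with summed levels of 1466 to 2003 in wild-type and 1454 to 1731 in transgenic arrays. Most of each sum came from Erbb3, by far the brightest (means 10.27 and 10.15), so the sums say little about the other markers. Mbp differed by 0.90 (SE 0.14), although its 8 probe sets held only 1 call in that direction and 1 in the other, and S100b by 0.57 (SE 0.15). The part of such cells in the Fabp7 reading was not tested.

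Fabp1 binds fatty acids, acyl-CoAs and bile acids and is among the most abundant proteins of the hepatocyte cytosol. Its brighter probe set, 1417556_at, read 14.26, 14.32 and 14.27 in wild-type and 14.29, 14.10 and 14.14 in transgenic liver. The groups overlapped, and the difference was -0.11 (SE 0.08). The second probe set, 1448764_a_at, read 13.59, 13.65 and 13.67 against 13.59, 13.49 and 13.58. Its groups met at 13.59 to the second decimal, with a difference of -0.08 (SE 0.07). Both lay above at least 99.5% of all probe sets, and the highest value on any array was 14.90. A further rise would thus be hard to see, and a fall may be understated. Scaled to the bacterial controls the differences were 0.27 and 0.29.

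Fabp2, which handles dietary fatty acids in enterocytes, read 12.19, 11.88 and 11.78 in wild-type and 12.27, 12.00 and 12.14 in transgenic liver on probe set 1418438_at. The groups overlapped only through wild-type replicate 1, the array in which Lct was high. With all arrays the difference was 0.19 (SE 0.12), and without that array it was 0.31 and past the threshold. Enterocyte markers were measured for 7 of 10 genes, with 1 lower and 6 not past the threshold. Their summed level was 510 to 1104 in wild-type and 527 to 787 in transgenic arrays. Outside wild-type replicate 1 most of each sum came from Krt20 (group means 8.33 and 8.59), so the sums say little about the other markers. In wild-type replicate 1 Cdh17 read 7.39, against 4.14 and 4.26 in the other wild-type arrays, and Cdx2 read 6.95, against 5.99 and 5.71. Vil1, a protein of the brush border that bile duct cells also make, read 6.47, 4.27 and 4.03 in wild-type and 6.65, 6.18 and 6.06 in transgenic arrays. The retinol binding protein gene Rbp2, the intestinal relative of Fabp2, also had its highest reading, 7.07, in wild-type replicate 1, against 5.13 to 5.76 elsewhere. The part of intestinal RNA in the Fabp2 values was not tested.

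Fabp4, which serves lipid storage in adipocytes and is also made by macrophages and endothelium, gave unequal differences on its probe sets. Probe set 1417023_a_at read 10.71, 10.94 and 10.98 in wild-type and 10.81, 10.62 and 10.58 in transgenic liver, with overlapping groups and a difference of -0.21 (SE 0.10). Probe set 1451263_a_at read 8.47, 8.81 and 8.91 against 8.80, 8.51 and 8.66, with a difference of -0.07 (SE 0.13). These were the bright pair, above at least 74.8% of probe sets, and neither separated the groups. Without wild-type replicate 1, the difference on 1417023_a_at was -0.29 and past the threshold.

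The dim pair for Fabp4 did separate them. Probe set 1424155_at read 5.52, 6.23 and 6.14 in wild-type liver and 5.01, 4.77 and 4.75 in the transgenic, which differed by -1.12 (SE 0.18). Probe set 1425809_at read 5.06, 5.45 and 5.14 against 4.80, 4.73 and 4.91, a difference of -0.41 (SE 0.11). The second of these was not past the threshold without the second wild-type array (-0.29) or the first or the second transgenic array (-0.40 and -0.37), nor with quantile normalization again or cyclic loess (-0.31 each) or scaling to the bacterial controls (-0.04). Under that scaling the bright pair had the opposite sign (0.16 and 0.30), and 1451263_a_at also without wild-type replicate 3 (0.02). Taken over the mean of its probe sets, Fabp4 differed by -0.45 (SE 0.12). At the dim readings, 39.5% and 29.4% of probe sets lay lower in wild-type liver, and the height over background is unknown.

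Markers of other cells known to hold Fabp4 were read beside it. For comparison, 19.1% of all genes were higher and 19.5% lower. Of 10 endothelial markers 5 were lower, 1 higher and 4 not past the threshold, and their summed level was 4639 to 4914 in wild-type and 4126 to 4469 in transgenic arrays. The largest differences in that list were 0.40 (SE 0.11) for Lyve1 and -0.38 (SE 0.07) for Kdr. Kupffer cell and macrophage markers were measured for 10 of 11 genes, with 3 lower and 7 not past the threshold. Their sums were 17881 to 22811 and 14989 to 18946, which overlap, and Adgre1 and Marco each differed by -0.56 (SE 0.17). Adipocyte markers, 5 of 7 measured, gave 1 higher, 2 lower and 2 not past the threshold, and their sums did not overlap (210 to 292 and 297 to 376). In that list the only higher gene was the lipid droplet gene Plin4 (1.31, SE 0.29), which set the direction of the sums. The lipase gene Lipe fell by 0.75 (SE 0.11) and Retn by 0.38 (SE 0.09). Adipoq (means 3.18 and 3.18) and Lep (3.69 and 3.70) read near the bottom of the scale in both groups. The part of these cells in the Fabp4 values was not tested.

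Fabp5, the epidermal form, is widely expressed and delivers fatty acids to PPAR delta in some cells. Probe set 1416021_a_at read 14.02, 14.11 and 14.20 in wild-type and 14.00, 14.11 and 14.16 in transgenic liver, and the difference was -0.02 (SE 0.08). Probe set 1416022_at read 13.35, 13.44 and 13.44 against 13.09, 13.19 and 13.18. On the latter every transgenic array was lower, by at least 0.16, with a difference of -0.25 (SE 0.07). This probe set was not past the threshold without wild-type replicate 2 or 3 (-0.24 each), transgenic replicate 1 (-0.22) or transgenic replicate 2 or 3 (-0.27 each), and its sign turned to 0.12 when arrays were scaled to the bacterial controls. Both lie at the bright end, above at least 99.1% of probe sets, where differences may be understated. Markers of stratified epithelium, the best known site of Fabp5, stayed dim at 3.74 to 5.50, with 5 of 6 measured, 1 lower and 4 not past the threshold (sums of 119 to 136 and 108 to 114). The largest differences there were those of Trp63 (-0.32, SE 0.08) and Krt15 (-0.30, SE 0.13, not past the threshold).

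Of the 11 probe sets, 5 passed the adjusted threshold (Fabp3 and Fabp7 higher, 2 of Fabp4 and 1 of Fabp5 lower), a share of 45.5% against 35.4% of all probe sets. The groups did not overlap on 6 of the 11 (54.5%), against 50.5% of all probe sets. Both shares lie near those of the whole table. The median difference over the 11 was -0.08, against -0.04 over all probe sets. Scaled to the bacterial controls, 5 of the 11 were past the threshold and higher and 1 lower, with a median of 0.29. The count was 3 without wild-type replicate 2 or without transgenic replicate 1, 2 or 3.

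**Figure D3:**
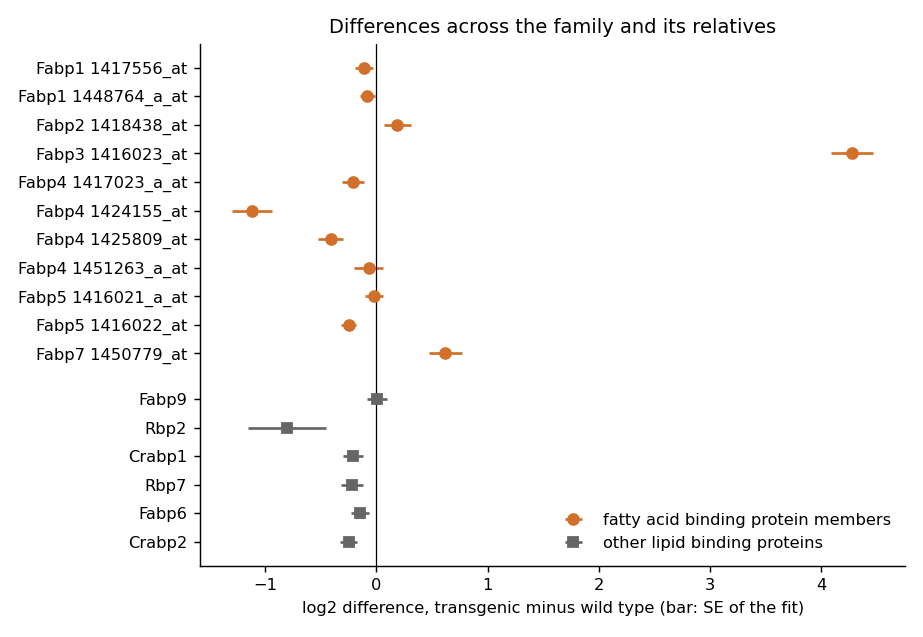
Log2 difference, transgenic minus wild type, with the SE of the fit (bars), for the 11 fatty acid binding protein probe sets and, below them, 6 other members of the lipid binding protein family. Fabp3 stands at 4.28 and Fabp7 at 0.62, and the relatives lie between -0.80 and 0.01.

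Genes of the same protein superfamily outside the 6 members were measured for 6 of 10 listed. Crabp2, a retinoic acid carrier, was past the threshold with a difference of -0.25 (SE 0.08, adjusted p = 0.0356), a call lost without any 1 of wild-type replicates 1, 2 and 3 or transgenic replicates 2 and 3 (adjusted p = 0.0677 to 0.117). It was also lost with quantile normalization again, cyclic loess, trend and robust moderation or the replicate block (adjusted p = 0.0584 to 0.243). Scaled to the bacterial controls, Crabp2 (0.12), Crabp1 (0.16), Rbp7 (0.15) and Fabp6 (0.22) had the opposite sign without passing the threshold, and Fabp9 passed at 0.38. Rbp2 differed by -0.80 (SE 0.35), with the spread set by wild-type replicate 1. The other four, Crabp1 (-0.21), Rbp7 (-0.22), the bile acid binding Fabp6 (-0.15) and the testis form Fabp9 (0.01), did not pass, and the list's median was -0.21. Without transgenic replicate 2, where the Crabp2 call was lost, Rbp7 did pass (-0.32, adjusted p = 0.0293). Among all 12393 genes, each represented by its brightest probe set, 38.6% passed, 19.1% higher and 19.5% lower, with a median of -0.04. On chromosome 3 the protein-coding genes Fabp5, Pmp2, Fabp9, Fabp4 and Fabp12 follow each other. Of these, Fabp4 and Fabp5 read lower on some probe sets and Fabp9 differed by 0.01 on its brighter probe set.

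The path of fatty acids into the cell and to acyl-CoA was measured through 16 of 21 listed genes, of which 3 rose, 5 fell and 8 did not pass. Over all genes, 19.1% rose and 19.5% fell. Cd36, a fatty acid translocase of the plasma membrane, read 9.23, 9.20 and 9.05 in wild-type and 10.14, 9.89 and 10.04 in transgenic liver, a rise of 0.86 (SE 0.09, adjusted p = 0.000292) on its brightest probe set. All 3 of its probe sets passed in that direction. Slc27a5, which takes up fatty acids and conjugates bile acids to CoA in hepatocytes, read 12.78, 12.56 and 12.61 against 10.88, 10.83 and 11.09. Slc27a5 thus fell by 1.71 (SE 0.10, adjusted p = 1.58e-05). Lpl, the lipase that frees fatty acids from lipoproteins, fell by 0.91 (SE 0.09, adjusted p = 0.000252). Acbd3, a Golgi protein with an acyl-CoA binding domain, rose by 0.45 (SE 0.13, adjusted p = 0.0274) on its brightest probe set. Of its 3 probe sets 2 passed in that direction, and the mean over all 3 differed by 0.20 (SE 0.07, adjusted p = 0.0436). The Acbd3 call was lost without wild-type replicate 1 or 2 or transgenic replicate 1 or 3 (adjusted p = 0.0522 to 0.0919). Under quantile normalization again it was lost too (adjusted p = 0.0559). The list's median was -0.13, and scaled to the bacterial controls it was 0.24, with 8 genes higher and 3 lower. By count, 5 genes passed without transgenic replicate 1 or without transgenic replicate 3.

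Nuclear receptors and coactivators that act on fatty acid genes were measured in full, 10 of 10. Here 2 rose, 6 fell and the other 2 missed the threshold, with a median of -0.34. Over all genes, 19.1% rose and 19.5% fell, with a median of -0.04. The coactivator gene Ppargc1a read 8.56, 9.15 and 8.77 in wild-type and 11.47, 12.06 and 12.02 in transgenic liver, a rise of 3.02 (SE 0.19) on its brightest probe set. All 5 of its probe sets passed in that direction. Esrra, a nuclear receptor that works with it, rose by 0.82 (SE 0.11). Ppara, the main PPAR of hepatocytes, fell by 1.09 (SE 0.09) and its partner Rxra fell by 0.81 (SE 0.07). Rxrg fell by 0.49, Ppard by 0.40, Pparg by 0.34 and Hnf4a by 0.33. With arrays scaled to the bacterial controls, Pparg and Hnf4a had the opposite sign (0.04 each), Ppard (-0.03) and Rxrg (-0.11) were not past the threshold, and 4 genes were higher and 2 lower. The Pparg call was lost without wild-type replicate 2 or 3 or transgenic replicate 2 or 3 (adjusted p = 0.062 to 0.0725), and the Ppard call without wild-type replicate 1 or 2 or transgenic replicate 1 (adjusted p = 0.0664 to 0.0776), with quantile normalization again (0.0529), with cyclic loess (0.071) or with the replicate block (0.0701).

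**Figure D4:**
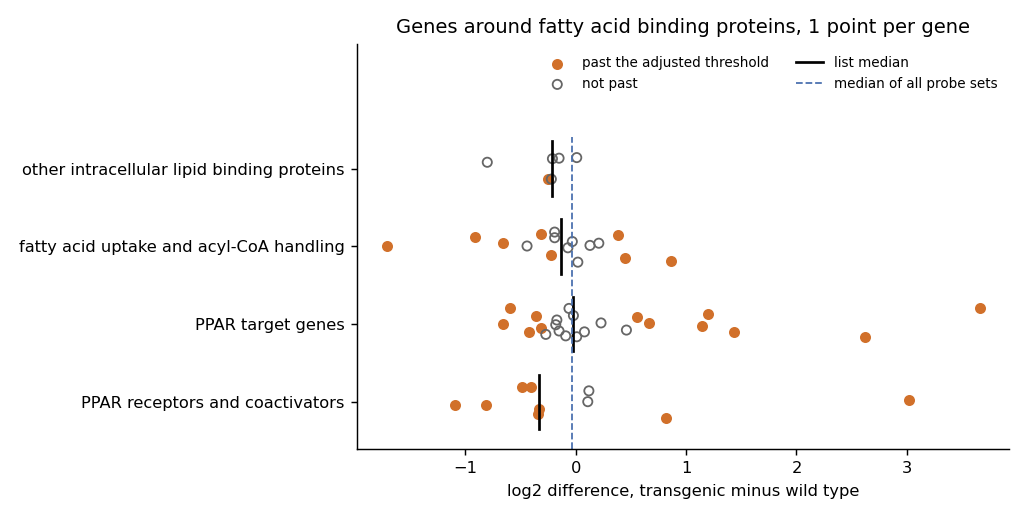
Log2 difference, transgenic minus wild type (horizontal axis), for each measured gene of 4 lists, filled where limma's adjusted p was under 0.05, with list medians as black bars and the median of all probe sets as a dashed line. The medians of the lists lie between -0.34 and -0.02, with single genes as high as 3.66.

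Of 23 measured PPAR target genes other than the family itself, 7 rose, 5 fell and 11 did not pass, with a median of -0.02. The shares over all genes were 19.1% and 19.5%, with a median of -0.04. Acot1, a thioesterase that splits acyl-CoA in the cytosol, read 6.74, 6.56 and 6.86 in wild-type and 10.74, 10.06 and 10.32 in transgenic liver, a rise of 3.66 (SE 0.17, adjusted p = 8.35e-06). Cidec, a protein that fuses lipid droplets, read 5.66, 5.45 and 5.40 against 8.41, 8.00 and 7.95, a rise of 2.62 (SE 0.14, adjusted p = 1.21e-05). Among those that fell, Pex11a, which multiplies peroxisomes, fell by 0.66 (SE 0.09) and Acaa1b, a peroxisomal thiolase, fell by 0.59 (SE 0.09). Under scaling to the bacterial controls 14 rose, and the Pex11a and Acaa1b differences of -0.29 and -0.22 were not past the threshold.

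Most of the measured bile duct markers rose beside Fabp3 and Fabp7 in the same arrays. Of 6 measured of 9 listed, 5 were higher and 1 did not pass, the keratin gene Krt19 (-0.27, SE 0.38). Over all genes, 19.1% were higher. The summed level of the 6 markers was 422 to 1024 in wild-type and 3498 to 4712 in transgenic arrays. In wild-type replicate 1, the array with high Lct, Epcam read 8.51, against 7.23 and 6.88 in the other wild-type arrays. Cldn7 read 7.89 there, against 6.34 and 6.26. Cldn4 differed by 4.61 (SE 0.26) and Cldn7 by 3.56 (SE 0.39). The part of such cells in the Fabp3 and Fabp7 readings was not tested.

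**Figure D5:**
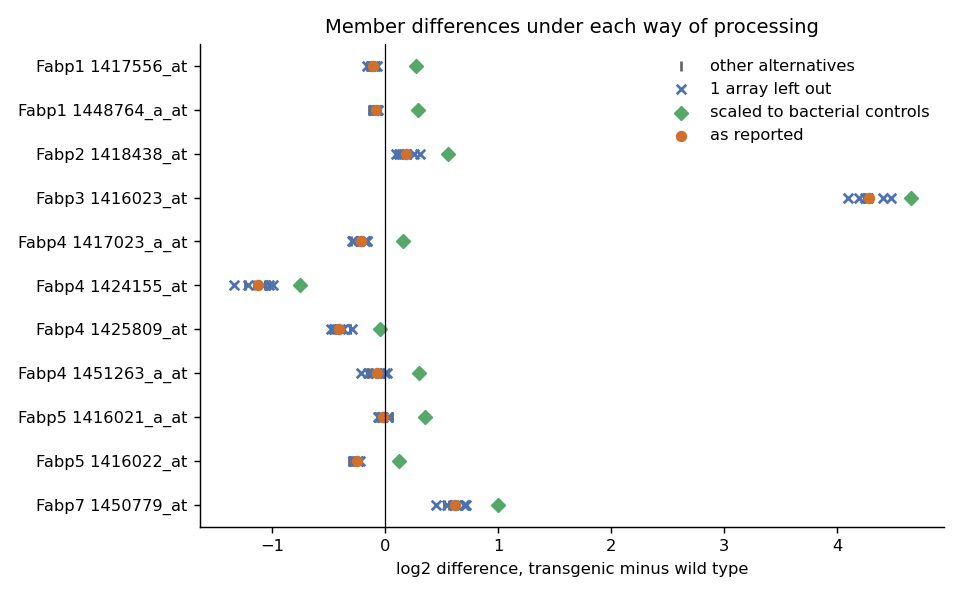
Log2 difference, transgenic minus wild type (horizontal axis), of each fatty acid binding protein probe set as reported and under each alternative. Fabp3 stays between 4.10 and 4.65, and scaling to the bacterial controls (diamonds) lifts every probe set and turns the sign of some.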

How the data were processed

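Liver RNA of 6 mice was made into biotinylated cRNA and read on GeneChip arrays (labels' protocols). The deposited log2 expression values, 1 per probe set, were made by the authors with affy and RMA, per the submitters' processing notes. Their versions are not given here. The table holds 0 missing values and no detection calls. RMA equalises array distributions, so total RNA per cell is out of reach, and the number of arrays limits the precision. Replicates are biological, per the labels.

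Gene names came from the platform annotation (20380 with 1 gene, 691 with several, 1555 with none, 64 controls). The 22626 probe sets other than controls were fitted with limma 3.58.1 under R 4.3.3 (lmFit and eBayes on group alone), and p-values were adjusted by Benjamini-Hochberg over all of them, with a threshold of 0.05. For gene lists, the probe set of highest mean stood for each gene, with no set test. Summed marker levels add the linear values of these probe sets. Exact permutation of 3 against 3 arrays reaches p = 0.1 at best and was not used. Members, lists, alternatives and named genes were chosen with earlier results of these data known. Named were all member probe sets, the list of relatives and receptors past the threshold. Each other pathway list gave its 2 largest rises and 2 largest falls past the threshold, and a marker list its 2 largest differences. Named too were the 3 genes nearest to a member whose brightest probe set differed by at least 1, unnamed gene models passed over. Xist, Lct, Rbp2, Ckmt2 and Tfeb readings by array were added after their values were seen. The markers Erbb3, Retn, Adipoq, Lep, Krt19, Krt20, Cdh17, Cdx2 and Epcam were also named outside these rules, with their values known. On data simulated for the transgenic against wild-type comparison over 22626 probe sets, changes of 0.5, 1 and 2 were recovered for 53.7%, 88.1% and 100% of changed probe sets. Of 22426 unchanged probe sets, 2 were called. Only 67, 67 and 66 probe sets were changed there, a far smaller share than was called in the data. The recovery rates therefore need not hold for the real comparison. List genes and family proteins for which no probe set or sequence was at hand were not analysed here. Plots were made with Python 3.11.15 and matplotlib 3.10.9.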

Additional observations from a re-analysis of the deposited data

How the results depend on the processing

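The alternatives were another choice of probe sets, normalization, moderation, array weights, a replicate block and each array left out. Fabp3 kept its direction and its side of the threshold in all 16 alternatives that hold its probe set, between 4.10 and 4.65, and the dim Fabp4 probe set 1424155_at in all 14, between -1.34 and -0.75. Of the family, 5 of 11 probe sets passed as reported. With 1 probe set per gene, 2 of 6 passed, with probe sets averaged by gene 3 of 6, and without the 40% dimmest probe sets 3 of 9. With each array left out, 3 to 7 passed. Over all probe sets, 8006 passed as reported, 4990 with 1 probe set per gene and 4765 with probe sets averaged by gene (fewer features tested), and 13908 when scaled to the bacterial controls. Under that scaling the sign turned for 4 named differences that were past the threshold, Fabp5 probe set 1416022_at (0.12), Crabp2 (0.12), Pparg (0.04) and Hnf4a (0.04). It also turned for differences that were not, both Fabp1 probe sets (0.27 and 0.29), the bright Fabp4 pair (0.16 and 0.30), Fabp5 probe set 1416021_a_at (0.35), Crabp1 (0.16), Rbp7 (0.15) and Fabp6 (0.22); the cause was not tested. It gave 5 of the family higher and 1 lower, against 2 and 3 as reported. The share of calls that were higher was 51.0% as reported, 59.2% without the dimmest probe sets and 42.1% with median centring. For fatty acid uptake, 5 to 9 genes passed with each array left out, against 8. Among the relatives, 1 of 6 passed as reported by limma and 0 to 1 with each array left out (1 to 3 at an unadjusted p under 0.05). By limma 0 passed with quantile normalization again or cyclic loess (0 at an unadjusted p under 0.05), 0 with trend and robust moderation (1 unadjusted) and 0 with the replicate block (4 unadjusted), and none was left without the dimmest probe sets. The replicate numbers only name the arrays. Deviations of same-numbered arrays correlated at -0.095, -0.021 and 0.051. Each wild-type array correlated best with a transgenic array of another number (0.114, 0.07 and 0.059). Of the transgenic arrays, only replicate 3 correlated best with its own number. With the replicate block 6757 probe sets and 5 of the family passed. Signal over background is unknown, which limits the dim readings of Fabp3 in wild-type liver and of Fabp4.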
